A study of Homo sapiens with 4 samples.

Results

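The genes described here encode parts of the centrosome: the centriole and its duplication factors, the gamma-tubulin complex, the augmin complex, centriolar satellites, the appendages of the older centriole, and the spindle-pole protein ASPM. They were taken from a list of 41 genes. A gene was kept where a row of the array table carried its symbol and no other, which held for 37 genes, and CENPJ was added because its row carries the current symbol CPAP. The 38 measured genes were 38 of 21469 genes with a row of their own. HAUS3, HAUS4 and HAUS7 share their rows with another gene and were not analysed here.

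RNA was measured on 4 arrays of U2OS, a human osteosarcoma cell line, with 2 arrays for DMSO, the solvent, and 2 for nocodazole, a drug that depolymerises microtubules. All cells had gone through 24 h without serum, 24 h in thymidine and 3 h of release, and were then kept for 48 h in DMSO or nocodazole. PLKO.1 stands in all 4 titles without an explanation, and no source used here gives the dose of nocodazole. The series text calls the replicates (numbered 2 and 3) biological, and the study asked what cells express after they slip out of a mitotic arrest.

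The centrosome is the main site from which animal cells grow microtubules. Its core is a pair of centrioles, each of which is copied once per cell cycle under the kinase PLK4, and around them lies a matrix that holds gamma-tubulin ring complexes, the templates on which new microtubules start. Augmin binds to existing spindle microtubules and brings gamma-tubulin to their sides, and satellites are granules that carry centrosome proteins. Several of these genes are transcribed in step with the cell cycle.

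All levels are log2 expression per array row. The arrays' medians over all genes were 6.38 and 6.06 with DMSO and 5.87 and 5.68 with nocodazole as deposited, so a shift of -0.45 in the median gene lies in every deposited fold change. Levels and changes below are therefore those after quantile normalization, which gives the 4 arrays a common distribution and put the median gene at -0.01, unless the deposited scale is named. A gene is said to have risen or fallen only if limma's adjusted p was under 0.05 on both scales. For falls the deposited scale is hardly a second check, since its shift lies in that direction. Of all genes, 21 were called lower after quantile normalization and 21 on both scales, while 39 and 32 were called higher. The 23 background rows had medians of 3.72 to 4.81 per array, and 36 of the 38 genes lay above them on all 4 arrays; the exceptions were CETN3, below on 2 arrays, and CEP290, below on 1. All 8 mesenchymal and osteoblast markers, among them RUNX2 and COL1A1, lay above background on all 4 arrays. So did 5 of 5 epithelial, 4 of 5 haematopoietic and 2 of 4 endothelial markers, and 78.1% of all genes, so this check hardly separates cell types; fewer cells of a kind and less RNA per cell cannot be told apart in such samples.

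With nocodazole, most centrosome genes had lower values than with DMSO, by small amounts, and no single gene passed the test. After quantile normalization 36 of the 38 had a log2 fold change below 0, where 52.4% of all genes did, and their median was -0.28 against -0.01 for all genes. CETN2 and TUBE1 were the exceptions. limma called 0 of the 38 lower and 0 higher, where it called 0.0978% of all genes lower and 0.182% higher. At an unadjusted p under 0.05, 12 were lower and 0 higher, against 5.44% and 3.9% of all genes. In 23 genes both nocodazole arrays lay under both DMSO arrays, as in 20.1% of all genes; in 1, CETN2, both lay above, as in 16.4%; in 14 the groups overlapped.

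On the deposited values limma called 28 of the 38 lower, where 24.9% of all genes were called lower, and 0 higher, where 0.238% were. The median of the 38 was -0.73 there, which is -0.28 relative to all genes, against -0.27 after quantile normalization. The 10 genes not called on that scale were CENPJ, CEP63, CEP120, CETN2, CETN3, SPICE1, TUBE1, OFD1, CEP290 and CEP164. A call there also depends on the standard error: CETN3 at -0.74 ± 0.41 was not called, and TUBGCP2 at -0.58 ± 0.15 was. The share of all genes is not matched for brightness. On all 4 arrays 94.7% of the 38 lay above background, against 78.1% of all genes. The part of brightness in these calls was not tested. DMSO arrays differed from each other by a median of 0.17 over the 38 genes and 0.19 over all genes. For the nocodazole arrays these medians were 0.22 and 0.17. The median relative to all genes was -0.14 without DMSO replicate 3 and -0.17 without nocodazole replicate 2, and 30 of the 38 were below 0 in each of these fits.

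**Figure D1:**
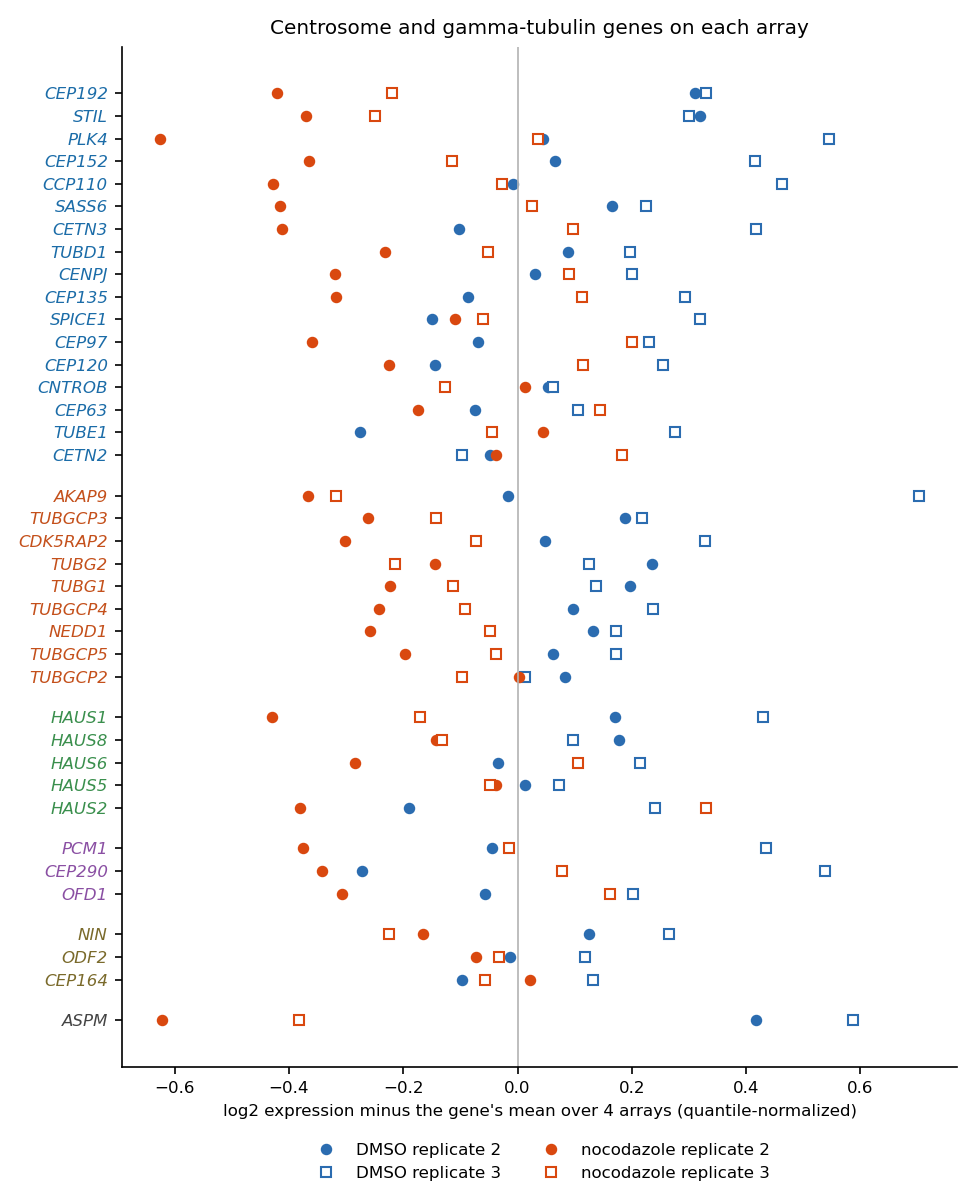
Each row is a gene and each point an array, as log2 expression minus that gene's mean over the 4 arrays, after quantile normalization; gene names are coloured by role in the order centriole, gamma-tubulin, augmin, satellites, appendages and spindle pole. Blue points (DMSO) lie to the right of both orange points (nocodazole) in 23 rows, all 9 gamma-tubulin rows among them.

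Promoter windows are shown for ASPM, with the lowest change, for STIL, CEP192 and TUBG1, and for CETN2, with the highest, all chosen after their values were seen. Each window runs from 250 bases before to 50 bases after the start site in RefSeq (GRCh38.p14), 5′ to 3′ on the gene's strand. ASPM lies at chr1:197146620-197146919 on the minus strand, STIL at chr1:47314098-47314397 on the minus strand, CEP192 at chr18:12991112-12991411 on the plus strand, TUBG1 at chr17:42609433-42609732 on the plus strand and CETN2 at chrX:152830708-152831007 on the minus strand. Capitals mark 3 words searched on both strands. The first is the cell-cycle homology region (CHR), TTTGAA or TTTAAA, through which the DREAM complex is known to repress mitotic genes. The second is CCAAT, the word of factor NF-Y, and the third an E2F word of TTT, then 2 bases that are each C or G, then CGC.
ASPM: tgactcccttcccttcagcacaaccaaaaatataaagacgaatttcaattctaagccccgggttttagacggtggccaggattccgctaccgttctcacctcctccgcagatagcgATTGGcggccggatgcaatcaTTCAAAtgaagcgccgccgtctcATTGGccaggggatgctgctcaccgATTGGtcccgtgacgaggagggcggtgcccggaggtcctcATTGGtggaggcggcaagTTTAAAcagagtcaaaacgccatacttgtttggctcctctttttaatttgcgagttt
STIL: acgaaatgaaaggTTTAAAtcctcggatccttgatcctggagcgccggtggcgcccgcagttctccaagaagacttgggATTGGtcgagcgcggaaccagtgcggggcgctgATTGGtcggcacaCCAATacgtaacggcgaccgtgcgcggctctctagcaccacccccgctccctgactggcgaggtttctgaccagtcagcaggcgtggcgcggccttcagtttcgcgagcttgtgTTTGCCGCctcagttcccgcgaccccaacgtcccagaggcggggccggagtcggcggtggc
CEP192: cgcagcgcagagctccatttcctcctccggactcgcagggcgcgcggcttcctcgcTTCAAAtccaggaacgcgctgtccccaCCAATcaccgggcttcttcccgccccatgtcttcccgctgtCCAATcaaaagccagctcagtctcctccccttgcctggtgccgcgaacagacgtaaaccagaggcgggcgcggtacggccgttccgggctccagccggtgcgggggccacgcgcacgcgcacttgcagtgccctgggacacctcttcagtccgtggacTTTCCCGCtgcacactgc
TUBG1: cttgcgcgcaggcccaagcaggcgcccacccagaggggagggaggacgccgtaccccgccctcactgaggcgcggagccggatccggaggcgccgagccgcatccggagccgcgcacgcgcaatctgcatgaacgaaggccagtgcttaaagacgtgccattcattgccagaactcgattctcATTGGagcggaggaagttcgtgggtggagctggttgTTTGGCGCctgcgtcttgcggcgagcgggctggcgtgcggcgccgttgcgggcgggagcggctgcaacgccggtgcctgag
CETN2: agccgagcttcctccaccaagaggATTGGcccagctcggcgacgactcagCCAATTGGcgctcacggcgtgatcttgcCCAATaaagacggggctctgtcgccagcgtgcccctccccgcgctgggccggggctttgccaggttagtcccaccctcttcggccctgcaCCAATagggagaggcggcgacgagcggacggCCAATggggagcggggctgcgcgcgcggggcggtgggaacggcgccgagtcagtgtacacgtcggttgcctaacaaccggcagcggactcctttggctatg
In the ASPM window CHR words begin at -113 and -7 from the start site. Its 4 CCAAT words begin at -134, -90, -65 and -25, all on the opposite strand. STIL has a CHR word at -237 and an E2F word at -11, and CEP192 a CHR word at -194 and an E2F word at 33. TUBG1 has an E2F word at -31 and no CHR word. CCAAT words stand in the windows of STIL, CEP192 and TUBG1 too. CETN2 has 6 CCAAT words, a pair of which overlap, and neither of the other words.

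Windows were found for 34 of the 38 genes. A CHR word stood in 10 of them (29.4%), against 20.0% of 14658 windows of tested genes, and CCAAT in 11 (32.4%) against 36.5%. An E2F word stood in 6 (17.6%), against 4.22%. These 6 genes were CEP192, STIL, SASS6, TUBG1, HAUS8 and CEP63, with log2 fold changes of -0.64, -0.62, -0.39, -0.33, -0.28 and -0.03. No other window held an E2F word. Among those without it were ASPM, AKAP9, HAUS1 and PLK4, with changes of -1.01, -0.69, -0.60 and -0.59. The counts describe letters in these windows and were not tested.

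ASPM, which organises microtubule minus ends at the spindle pole, had the lowest change of the 38. Its level was 7.35 and 7.52 on the DMSO arrays and 6.31 and 6.55 on the nocodazole arrays. The groups did not overlap, and the distance between them was several times that within either. The log2 fold change was -1.01 ± 0.15 (SE, n = 2 per group; limma adjusted p = 0.0527), which leaves 49.8% of the DMSO level and is the 38th lowest of 21469 genes. It did not pass. limma's adjusted p was 0.0307 without dim genes, 0.182 without the variance trend and 0.322 after median centring. With a replicate block, for which the labels give no pairing, limma's adjusted p was 0.0173. The change lay between -1.13 and -0.88 with any 1 array left out. As deposited the change was -1.46 ± 0.17 (limma adjusted p = 1.82e-06).

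The 17 genes of centriole duplication and structure had a median log2 fold change of -0.23 and ran from -0.64 to 0.14. In 8 of them the nocodazole arrays lay under the DMSO arrays (20.1% of all genes), and limma called 10 lower as deposited (24.9% of all genes) and 0 after quantile normalization. The lowest 4 were CEP192, STIL, PLK4 and CEP152, none of which passed. With any 1 array left out the median relative to all genes lay between -0.43 (without nocodazole replicate 3) and -0.08 (without DMSO replicate 3). CEP192, a scaffold that recruits PLK4 and pericentriolar matrix, was at 7.77 and 7.79 with DMSO and at 7.04 and 7.24 with nocodazole. The DMSO arrays were nearly equal and both nocodazole arrays lay below them, a change of -0.64 ± 0.13 (limma adjusted p = 0.116). STIL, which PLK4 phosphorylates so that it binds SASS6, had a change of -0.62 ± 0.11 (limma adjusted p = 0.0935).

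PLK4, the kinase that triggers duplication, was at 6.14 and 6.64 with DMSO and at 5.47 and 6.13 with nocodazole. Its groups were separated only by the distance from 6.13 to 6.14, and the change was -0.59 ± 0.25 (limma adjusted p = 0.522). It was -0.86 and -0.34 without DMSO replicate 2 or 3, and -0.28 and -0.91 without nocodazole replicate 2 or 3. CEP152, which shares the recruitment of PLK4 with CEP192, had a change of -0.48 ± 0.18, and SASS6, the protein of the cartwheel on which a centriole forms, one of -0.39 ± 0.17. CCP110, which caps the growing end of the centriole, had -0.45 ± 0.21, while CEP97, its partner in the cap, had -0.16 ± 0.21 with overlapping groups. None of these 4 passed, with limma adjusted p from 0.447 to 0.937.

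The other centriole genes act in elongation, the wall and its tubulins. CENPJ, which sets centriole length, had a log2 fold change of -0.23 ± 0.19, CEP135, a protein of the cartwheel and wall, -0.21 ± 0.20, CEP120, which works with CENPJ, -0.11 ± 0.20, and SPICE1 -0.17 ± 0.19. CEP63, the partner of CEP152, had -0.03 ± 0.17, with a 95% confidence interval of -0.43 to 0.37. CNTROB (centrobin, on daughter centrioles) had -0.11 ± 0.14. TUBD1 and TUBE1, the delta- and epsilon-tubulins that stabilise centriole triplets, had -0.28 ± 0.14 and 0.00 ± 0.22. The interval of TUBE1 ran from -0.50 to 0.50, so changes of that size in either direction are not excluded by it.

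The centrins differed in sign. CETN2, a calcium-binding protein of the centriole lumen, was at 7.21 and 7.16 with DMSO and at 7.22 and 7.44 with nocodazole. It was the 1 gene whose nocodazole arrays both lay above the DMSO arrays, at the nearest 7.22 against 7.21, with a change of 0.14 ± 0.14 (limma adjusted p = 0.885). As deposited its change was -0.31, where the median gene is at -0.45, and after median centring it was 0.10. CETN3 had a change of -0.32 ± 0.26 and its groups overlapped.

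In the gamma-tubulin complex and its anchors all 9 genes had values below 0, their median was -0.33, and in all 9 the nocodazole arrays lay under the DMSO arrays, as in 20.1% of all genes. limma called all 9 lower as deposited, where 24.9% of all genes were, and 0 after quantile normalization, and the median relative to all genes was -0.25 to -0.39 with any 1 array left out. TUBG1, the main gamma-tubulin, was at 10.19 and 10.13 with DMSO and at 9.77 and 9.88 with nocodazole, a change of -0.33 ± 0.10 (limma adjusted p = 0.326). TUBG2, its paralog, was at 8.42 and 8.31 with DMSO and at 8.04 and 7.97 with nocodazole, a change of -0.36 ± 0.12 (limma adjusted p = 0.341). Both genes lie on chromosome 17 and are close in sequence, so their rows may share signal and the likeness of their changes is uncertain.

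Of the ring proteins that hold gamma-tubulin, TUBGCP2 and TUBGCP3 form its small complex and TUBGCP4 and TUBGCP5 are further parts of the ring. No row was found for TUBGCP6. TUBGCP3 had a log2 fold change of -0.41 ± 0.12, TUBGCP4 one of -0.33 ± 0.12 and TUBGCP5 one of -0.24 ± 0.15. TUBGCP2 was at 7.82 and 7.75 with DMSO and at 7.74 and 7.64 with nocodazole. Its groups met between 7.74 and 7.75, and its change of -0.09 ± 0.12 was the smallest of the set. NEDD1, which links the ring to the centrosome and to augmin, had -0.30 ± 0.13, and CDK5RAP2, which binds and activates the ring, -0.37 ± 0.17. AKAP9, a large scaffold at the centrosome and Golgi, was at 5.69 and 6.41 with DMSO and at 5.34 and 5.39 with nocodazole. Its DMSO arrays lay 0.72 apart, more than the change of -0.69 ± 0.24 (limma adjusted p = 0.395), which was -1.06 without DMSO replicate 2 and -0.32 without DMSO replicate 3.

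Of the augmin subunits 5 were measured, with a median of -0.19 and all 5 below 0. HAUS1 was at 5.43 and 5.69 with DMSO and at 4.83 and 5.09 with nocodazole, so the groups did not overlap, with a change of -0.60 ± 0.19 (limma adjusted p = 0.324). HAUS2 was at 6.74 and 7.17 with DMSO and at 6.55 and 7.26 with nocodazole, so the nocodazole arrays lay on either side of the DMSO arrays and the change was -0.05 ± 0.24 (limma adjusted p = 0.991). HAUS8, the subunit that binds the microtubule, had -0.28 ± 0.13, HAUS6, which contacts NEDD1, -0.19 ± 0.17, and HAUS5 -0.09 ± 0.13. limma called all 5 lower as deposited (24.9% of all genes) and 0 after quantile normalization. The median relative to all genes was -0.17 with all arrays, -0.26 and -0.04 without DMSO replicate 2 or 3, and -0.08 and -0.37 without nocodazole replicate 2 or 3.

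The 3 satellite genes had overlapping groups. PCM1, the scaffold of satellites, was at 6.64 and 7.12 with DMSO and at 6.31 and 6.67 with nocodazole, a change of -0.39 ± 0.20 (limma adjusted p = 0.635). OFD1, a satellite and centriole-tip protein, was at 5.04 and 5.30 with DMSO and at 4.79 and 5.26 with nocodazole, a change of -0.15 ± 0.21 (limma adjusted p = 0.950). In both genes the higher nocodazole array lay between the DMSO arrays. CEP290, which also acts at the base of the cilium, had -0.27 ± 0.29, and its DMSO arrays were 0.81 apart, the widest of the 38 genes. The median of the 3 relative to all genes went from -0.25 to -0.65 without DMSO replicate 2, to 0.00 without DMSO replicate 3, to -0.04 without nocodazole replicate 2 and to -0.46 without nocodazole replicate 3.

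Among the appendage genes NIN (ninein), which anchors microtubules at the subdistal appendages, was at 8.16 and 8.30 with DMSO and at 7.87 and 7.81 with nocodazole. Both nocodazole arrays lay below, a change of -0.39 ± 0.12 (limma adjusted p = 0.309). CEP164, a distal appendage protein needed for ciliation, was at 5.96 and 6.19 with DMSO and at 6.08 and 6.0 with nocodazole, all within the range of the DMSO arrays. Its change was -0.04 ± 0.16, with a 95% confidence interval of -0.40 to 0.32. ODF2, on which appendages are built, had -0.11 ± 0.13. The median of the 3 relative to all genes was -0.09 and became -0.17 without DMSO replicate 2 and -0.02 without DMSO replicate 3.

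**Figure D2:**
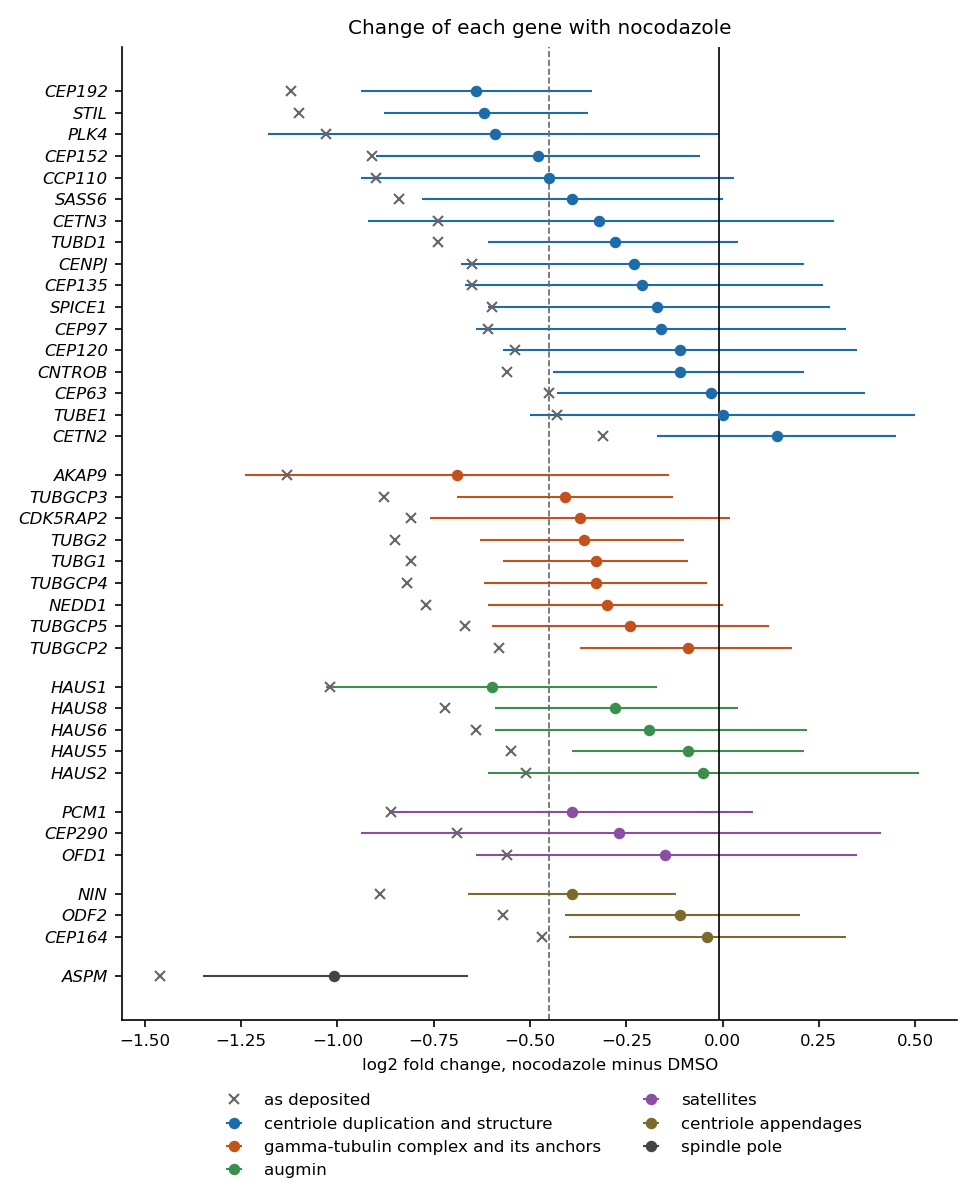
Points give the log2 fold change of each gene after quantile normalization, with limma's 95% confidence interval as the bar, and crosses the change as deposited. The solid line is the median of all genes after quantile normalization (-0.01) and the dashed line that as deposited (-0.45). ASPM lies lowest at -1.01, and each cross lies to the left of its point.

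A further 81 genes of the centrosome and spindle pole were listed, of which 71 had a row of their own. limma called 0 of them after quantile normalization in either direction, and 45 lower and 0 higher as deposited, where 24.9% of all genes were lower. Their median was -0.30, 62 were below 0 against 52.4% of all genes, and in 42 the nocodazole arrays lay under the DMSO arrays, as in 20.1% of all genes. Among other centriole genes LRRCC1 had the lowest log2 fold change, -0.72 ± 0.19, and CEP128 the highest, 0.27 ± 0.19. Among other appendage and ciliary genes these were CNTRL (centriolin) at -0.68 ± 0.18 and TCTN1, of the ciliary transition zone, at 0.15 ± 0.19. SSX2IP, at -0.46 ± 0.16, and PIBF1, at 0.00 ± 0.19, bounded the other satellite genes. At the pole GPSM2, which orients the spindle, had -0.76 ± 0.14 and CCDC61 0.07 ± 0.16. Their set holds 20 measured genes, further gamma-tubulin and pericentriolar genes among them. In 13 of the 20 the nocodazole arrays lay under the DMSO arrays. MZT1, of that set, had -0.06 ± 0.13 with overlapping groups.

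Cell-cycle genes are given beside these values. All 19 listed, which hold markers of S phase and mitosis and their regulators, were below 0, with a median of -0.56, and 19 were called lower as deposited, where 24.9% of all genes were. Of these, 3 fell on both scales, as did 0.0978% of all genes, though for falls the deposited scale adds little. MKI67 (the proliferation marker Ki-67) had a log2 fold change of -1.11, CENPF (a kinetochore protein) one of -0.94 and MCM6 (a replicative helicase subunit) one of -0.92, with limma adjusted p of 0.0352, 0.0461 and 0.0492. After median centring limma's adjusted p was 0.488, 0.474 and 0.37. Without the variance trend limma called 0 of 21469 genes lower. TOP2A, CCNA2 and NUSAP1 had -0.70, -0.79 and -1.04 and did not pass. MKI67 and CENPF lie close to ASPM at -1.01, while the median centrosome gene lies at -0.28. The lists overlap. CEP192, STIL, HAUS1 and PLK4, at -0.64, -0.62, -0.60 and -0.59, lie past the cell-cycle median of -0.56. LIN9, LIN54 and AURKB, at -0.16, -0.26 and -0.35, lie near the centrosome median. The part of cell-cycle stage in the centrosome values was not tested.

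**Figure D3:**
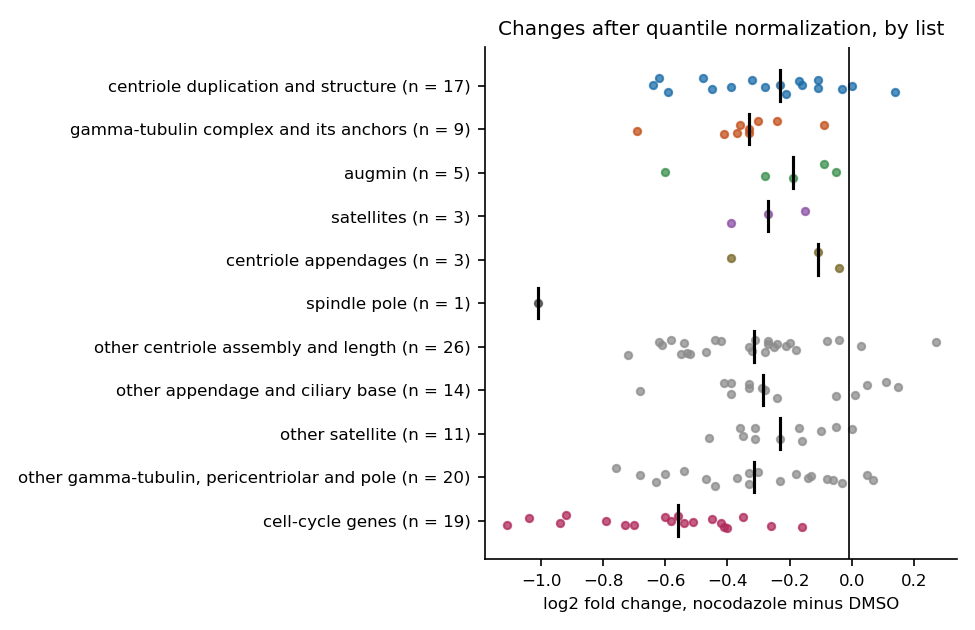
Each point is a gene's log2 fold change after quantile normalization, each short bar the median of its list and the long line the median of all genes (-0.01). Coloured lists at the top are the 38 centrosome genes by role, grey lists are the other centrosome genes and the bottom list holds the 19 cell-cycle genes, whose median is -0.56.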

How the data were processed

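RNA (100 ng per sample, per the labels' protocols) was hybridised to Affymetrix Human Transcriptome 2.0 arrays. The authors deposited log2 values, with a column for each array. Partek 7.0, RMA and hg19 are named in the submitters' processing notes, with no further settings. That the scale is log2 follows from RMA and from values between 0.50 and 14.3. Of 65535 rows, 1530 control rows were left out. Rows with exactly 1 gene symbol were kept and the row of highest mean stood for a gene, which left 21469 genes. The 4 arrays were quantile-normalized over the 64005 other rows. limma 3.58.1 (R 4.3.3; lmFit, eBayes with trend, two-sided) compared the groups with no block, and p-values were adjusted (Benjamini-Hochberg) over the whole gene table; the same test was run on the deposited values. The steps were run on simulated arrays that were given the value distribution of each deposited array. There the test on the deposited scale also called many unchanged genes, far more than after quantile normalization. The shift between groups was built into those arrays, so that difference follows from the setting. Because of the same shift in the data, counts called as deposited are read only against the share of all genes. That share is not matched for brightness. The number of arrays limits the precision.

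Every member is named. Values on all 4 arrays are given for genes past the threshold after quantile normalization (none), ASPM, the lowest and highest change of each role, PLK4, TUBG1 and TUBG2. Of the other centrosome genes the lowest and highest of each set are named, and MZT1. The members and lists were chosen with earlier results of these data known. Replicate numbers are shared between groups, but nothing in the labels pairs the samples. Alternatives were other scalings, no variance trend, a replicate block, a filter on dim genes, the mean of a gene's rows and each array left out.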

Additional observations from a re-analysis of the deposited data

How the results depend on the processing

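No member was called higher under any of the 12 alternatives. The count called lower went from 0 to 28 on the deposited values, to 37 on the deposited values with the replicate block, to 3 with the replicate block after quantile normalization (ASPM, STIL and CEP192, with limma adjusted p of 0.0173, 0.0428 and 0.044; all 3 were also called on the deposited values with that block), and to 1 without dim genes (ASPM, also called as deposited). It stayed at 0 after median centring, without the trend, with the mean of rows and with quantile normalization over gene rows only (added after seeing the data). Over all genes limma called 21 lower and 39 higher, against 5341 and 51 as deposited. On the deposited values with the replicate block it called 13207 of 21469 genes lower and 127 higher. The counts were 1 and 19 after median centring and 0 and 11 without the trend. With the replicate block after quantile normalization they were 120 and 110, and without dim genes 57 and 62. With 1 array left out 1 group is a single array, assumed to vary like the other, so sizes of change are read there rather than calls. The median of the members relative to all genes was -0.27, and with any 1 array left out it lay between -0.39 (nocodazole replicate 3 omitted) and -0.14 (DMSO replicate 3 omitted).

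The deposited scale shifts the median gene by -0.45, so signs there are no check of direction: CETN2 was at -0.31 and TUBE1 at -0.43, with and without the replicate block. On scales without that shift CETN2 stayed above 0 (0.10 after median centring, 0.03 to 0.26 with 1 array left out), and signs changed for the other 11 members named here, none past the threshold after quantile normalization. TUBE1 was at -0.01 after median centring. With 1 array left out the ranges were -0.41 to 0.00 for CEP135, -0.19 to 0.13 for CEP63, -0.31 to 0.09 for CEP120, -0.43 to 0.12 for CEP97, -0.41 to 0.07 for SPICE1, -0.28 to 0.27 for TUBE1, -0.39 to 0.31 for HAUS2, -0.38 to 0.01 for HAUS6, -0.38 to 0.09 for OFD1, -0.68 to 0.14 for CEP290, -0.15 to 0.07 for CEP164 and -0.65 to 0.00 for the satellite median. The other 26 members kept their sign throughout, ASPM between -1.13 and -0.88. The same-numbered arrays of both groups deviated together with r = 0.224 over genes, which with 2 numbers does not show pairing. The cause of these dependences was not tested.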
